A study of Mus musculus with 9 samples.

Results

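Imprinted genes are expressed mainly or only from the allele inherited from one parent. This account follows 38 autosomal imprinted genes of the mouse in ATAC-seq peak lists, out of 49943 RefSeq genes on the assembled chromosomes. The genes were taken from a list of names. No measured value entered that list, but it was chosen with earlier results of these data known. The genes fall into 20 imprinted clusters or single loci. Of the 38 genes, 31 are protein-coding and 7 are long non-coding RNAs, and 16 of them lie on chromosome 7. For each gene, peaks were counted within 1 kb of either gene end and within 50 kb of the whole gene. Near these genes lay 302 of the 116362 regions that had a peak in at least 1 library.

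The libraries came from 3 lines of E14 mouse embryonic stem cells, all of a derivative named TOT2N variant in the labels. In the first, a TetR-MYBTA construct was stably integrated; in the second it was a TetR construct; the third, the wild type (WT), had neither. TetR is the bacterial tetracycline repressor, a DNA-binding protein, and the study concerns the transcription factor MYB. Each line had 3 libraries. The labels do not say how many clones stand behind a line, which promoter drives a construct, or whether replicates were separate cultures, so all p-values below measure only the spread between these libraries. Because each integrated line is compared as a whole, an effect of its construct and a property of the cells it was grown from cannot be told apart.

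ATAC-seq marks open chromatin by inserting sequencing adaptors where DNA is accessible. The deposited lists held 45136 to 70230 peaks, from 16.4 to 23.0 M tags per library, of which 5.48% to 9.78% fell in peaks. A list averaged 53909 ± 7722 peaks for TetR-MYBTA, 64983 ± 5796 peaks for TetR and 59762 ± 3247 peaks for WT (SD over 3 libraries). Peak numbers near a gene were therefore scaled by the length of each list before lines were compared. In these bulk libraries, fewer cells with an open site and weaker opening in each cell cannot be told apart, and the peaks carry no information on which parental allele was open. Of 12 embryonic stem cell markers, 7 had a gene-end peak in all 9 libraries, where 44.2% of all protein-coding genes and 25.2% of all RefSeq genes had one. Esrrb and Zfp42 had one in none, and Pou5f1 had one in 1 of 3 TetR-MYBTA, 1 of 3 TetR and 0 of 3 WT libraries. Among 8 fibroblast or feeder markers 1 (Twist1) had such a peak in all 9 libraries and 2 (Postn and Lum) in none. Col1a1, Col1a2 and Dcn had one in 8 libraries, Thy1 in 7 and Prrx1 in 6. Among 5 endoderm markers 0 had one in all 9 libraries and 3 in none, while Foxa2 and Gata6 had one in 6.

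Imprinted genes lie in clusters that are governed by imprinting control regions, stretches of DNA whose CpG methylation is set differently in sperm and egg and is then kept on one parental chromosome. In many clusters the unmethylated control region drives a long non-coding RNA or binds the insulator protein CTCF, and this silences or activates the protein-coding genes around it on that chromosome only. The zinc finger protein ZFP57 keeps the methylation by binding the hexamer TGCCGC when its CpG is methylated. Cultured embryonic stem cells are known to lose or gain imprints from clone to clone, with Dlk1-Meg3 and Igf2-H19 among the clusters most often named.

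The promoters of 5 genes on which the comparisons below turn are printed first. Each is the 250 bases before the RefSeq start, from the RefSeq promoter table (build GRCm38.p6, the same coordinates as mm10), 5′ to 3′ on the strand of the gene, with CpG dinucleotides in capitals.
Phlda2, chr7:143502525-143502774, minus strand: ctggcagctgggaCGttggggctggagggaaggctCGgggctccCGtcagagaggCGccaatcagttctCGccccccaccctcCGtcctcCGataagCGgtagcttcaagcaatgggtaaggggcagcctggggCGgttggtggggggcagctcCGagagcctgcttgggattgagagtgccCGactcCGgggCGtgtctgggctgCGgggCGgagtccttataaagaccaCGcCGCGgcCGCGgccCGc
Dlk1, chr12:109452573-109452822, plus strand: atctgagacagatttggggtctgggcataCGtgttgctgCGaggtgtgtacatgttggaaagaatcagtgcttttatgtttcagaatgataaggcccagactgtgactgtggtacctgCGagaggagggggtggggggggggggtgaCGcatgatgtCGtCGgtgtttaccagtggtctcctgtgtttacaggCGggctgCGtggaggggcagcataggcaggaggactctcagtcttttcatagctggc
Airn, chr17:12741061-12741310, plus strand: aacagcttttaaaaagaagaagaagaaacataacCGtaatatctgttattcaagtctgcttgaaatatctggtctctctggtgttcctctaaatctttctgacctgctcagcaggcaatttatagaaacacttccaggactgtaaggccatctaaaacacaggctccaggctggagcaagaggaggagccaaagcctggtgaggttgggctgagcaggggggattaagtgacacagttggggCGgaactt
Kcnq1ot1, chr7:143296548-143296797, minus strand: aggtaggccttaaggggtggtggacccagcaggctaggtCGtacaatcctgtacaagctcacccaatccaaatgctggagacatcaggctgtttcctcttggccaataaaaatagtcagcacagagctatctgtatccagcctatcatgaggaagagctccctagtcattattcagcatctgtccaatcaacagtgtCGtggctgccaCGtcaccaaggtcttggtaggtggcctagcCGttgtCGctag
Nap1l5, chr6:58907127-58907376, minus strand: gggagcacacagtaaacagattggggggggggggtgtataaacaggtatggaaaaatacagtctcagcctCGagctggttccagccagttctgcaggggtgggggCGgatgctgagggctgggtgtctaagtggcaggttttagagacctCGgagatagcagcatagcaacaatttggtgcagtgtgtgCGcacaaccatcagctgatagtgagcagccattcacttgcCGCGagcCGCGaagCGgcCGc

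These windows differ in CpG content and in how often a peak lay over them. The Phlda2 window holds 21 CpGs and was overlapped by a peak in 0 of 3 TetR-MYBTA, 3 of 3 TetR and 1 of 3 WT libraries. The Airn window holds 2 CpGs and was overlapped in 0 of 3 TetR-MYBTA, 1 of 3 TetR and 2 of 3 WT libraries. The Dlk1 window, with 8 CpGs, was overlapped in none of the 9 libraries, since the peaks at Dlk1 lay inside the gene. The Kcnq1ot1 window, with 5 CpGs, was overlapped in all 9, and the Nap1l5 window, with 10 CpGs, in 3 TetR-MYBTA, 2 TetR and 3 WT libraries.

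The RefSeq table holds 45 promoters of 30 of the genes, some of which overlap one another. A peak lay over 11 of the 45 in all 9 libraries (24.4%, against 20.3% of all 32851 promoters), over 16 in 1 to 8 libraries and over 18 in none. The median was 10 CpGs per window, against 6 over all promoters. TGCCGC, searched on both strands, was found in 7 of the 45 (15.6%) and in 8.68% of all promoters. The Nap1l5 window holds 1 such hexamer, in which the CpG is shared with the capitals above, and the other 4 printed windows hold 0. Promoters used by a single gene could differ: at Mest, a hydrolase-fold gene expressed from the paternal allele, the promoter window at the outer start had no peak in any library, while both overlapping windows at the inner start had one in 1 of 3 TetR-MYBTA, 3 of 3 TetR and 3 of 3 WT libraries. The region at the inner start, chr6:30737904-30738286, had a peak in all 9 libraries.

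As a whole, the imprinted genes held a similar share of each line's peaks. The peaks near them made up 0.256%, 0.258% and 0.281% of the TetR-MYBTA lists, 0.265%, 0.265% and 0.276% of the TetR lists, and 0.299%, 0.261% and 0.284% of the WT lists. The TetR-MYBTA mean was 0.265 ± 0.0139%, the TetR mean 0.269 ± 0.00613% and the WT mean 0.281 ± 0.0186% (SD, n = 3 each), and all 3 ranges overlapped. In peak numbers the lists held 142 ± 13.6 for TetR-MYBTA, 174 ± 12.01 for TetR and 168 ± 2.31 for WT. The grid of peak numbers by cluster is not scaled, and TetR-MYBTA, whose lists were shortest on average, lay below TetR in most clusters. Gnas was at 0.71 times TetR unscaled and 0.88 times scaled, and Inpp5f at 0.73 and 0.89. Scaled ratios of TetR-MYBTA over TetR were furthest from 1 at Dlk1-Meg3 (0.26) and Nap1l5 (4.39), leaving out Nnat, which lacked TetR-MYBTA peaks.

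**Figure D1:**
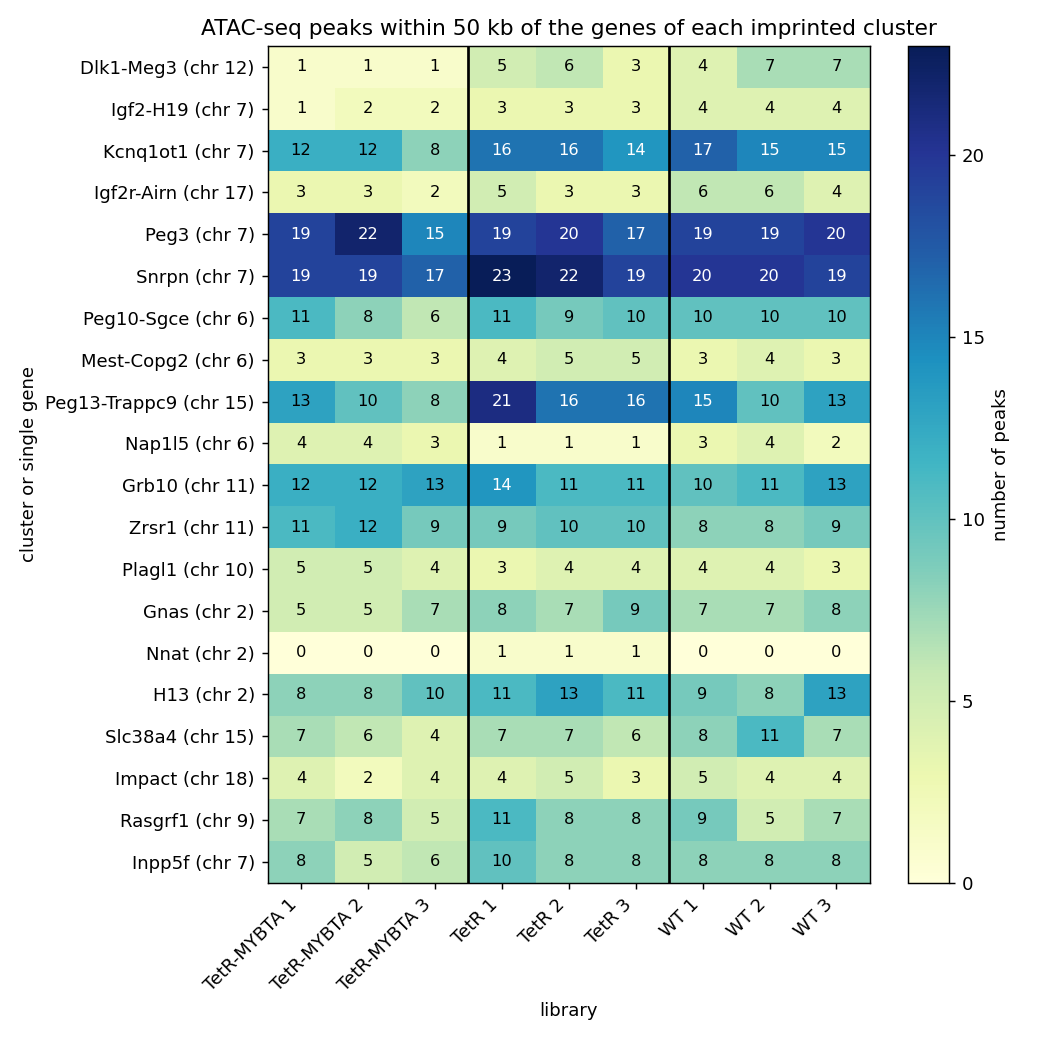
Number of ATAC-seq peaks within 50 kb of the genes of each imprinted cluster (rows) in each of the 9 libraries (columns), unscaled, each peak counted once per cluster. The Dlk1-Meg3 row holds 1 peak in each TetR-MYBTA library and 3 to 7 in the others, and the Nap1l5 row holds 1 peak in each TetR library and 2 to 4 in the others.

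Peaks within 50 kb were compared between lines with limma on log2 peak numbers scaled by list length, over 33578 genes with a mean of at least 2 peaks per library, with Benjamini-Hochberg adjustment over all of them and a threshold of 0.05. Of the imprinted genes 29 entered this test and 9 fell below the minimum, namely Nnat, Igf2, Kcnq1ot1, Dlk1, Meg3, Rian, Mirg, Peg13 and Igf2r. Between TetR-MYBTA and TetR, 1 of the 29 passed, Nap1l5, which was higher, while 12.6% of all genes tested passed, 4.19% higher and 8.37% lower. Between TetR-MYBTA and WT, 3 of the 29 passed, Zrsr1 higher and Kcnq1 and Airn lower, while 12.4% of all genes passed, 3.1% higher and 9.32% lower. Between TetR and WT, 1 of the 29 passed, Nap1l5, which was lower, while 1.53% of all genes passed, 0.768% higher and 0.759% lower. Each pair of these comparisons shares the libraries of one line, and genes of one cluster share peaks wherever their windows overlap.

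The median log2 fold change of the 29 genes was -0.01 for TetR-MYBTA against TetR, with a median of -0.03 over all genes tested. It was -0.07 for TetR-MYBTA against WT, with -0.06 over all genes, and -0.04 for TetR against WT, with -0.04 over all genes. Below 0 lay 15, 20 and 19 of the 29 genes in these 3 comparisons, taken in the same order. With 1 to 3 genes passing of 29, none of these counts is read as particular to imprinted genes, and those that passed are described by cluster.

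**Figure D2:**
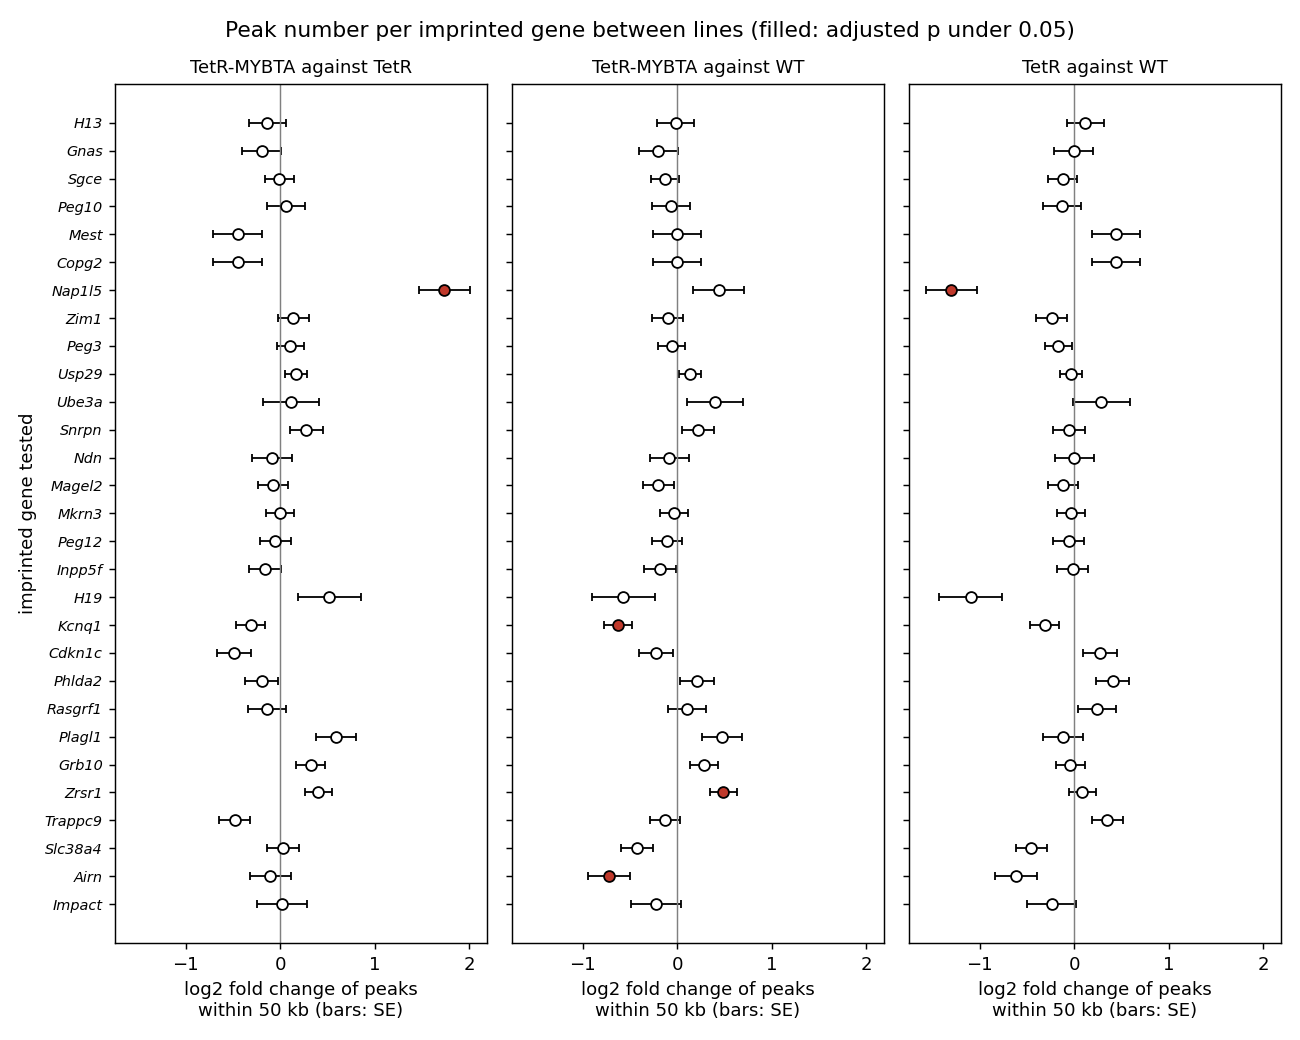
Log2 fold change of the scaled number of peaks within 50 kb for the 29 imprinted genes tested, in the 3 comparisons, with bars for the standard error of limma and filled points for an adjusted p under 0.05. Nap1l5 lies at 1.74 for TetR-MYBTA against TetR and at -1.30 for TetR against WT, and Kcnq1 (-0.63), Airn (-0.72) and Zrsr1 (0.49) are the filled points of TetR-MYBTA against WT.

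At the gene ends, most imprinted genes looked the same in every library, but a larger share varied than over all genes. A peak within 1 kb of either end was present in all 9 libraries at 17 of the 38 genes (44.7%), in 1 to 8 libraries at 13 and in none at 8. Of all 49943 RefSeq genes, 12593 (25.2%) had one in all 9 libraries and 29240 in none. Over protein-coding genes alone the share with a peak in all 9 libraries was 51.6% of the imprinted ones and 44.2% of all. The 17 constant genes were H13, Copg2, Nap1l5, Zim1, Ube3a, Ndn, Magel2, Mkrn3, Peg12, Inpp5f, Kcnq1ot1, Cdkn1c, Rasgrf1, Grb10, Zrsr1, Slc38a4 and Igf2r. The 8 genes without one were Nnat, Snrpn, H19, Igf2, Meg3, Rian, Trappc9 and Impact.

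Among the 13 genes that varied, Dlk1, Phlda2 and Mirg lacked the peak in all TetR-MYBTA libraries and had it in all libraries of another line. Dlk1 and Phlda2 had a gene-end peak in 0 of 3 TetR-MYBTA and 3 of 3 TetR libraries, that is 2 of the 29 imprinted genes with such a peak in either line, while 2.85% of all such genes met the same rule. Mirg had one in 0 of 3 TetR-MYBTA and 3 of 3 WT libraries, 1 of 27 imprinted genes, while 2.46% of all such genes did. The opposite pattern, a peak shared by the 3 TetR-MYBTA libraries and missing from the other line, was met by 0 imprinted genes against TetR and 0 against WT, and by 0.627% and 0.512% of all genes. Between TetR and WT, 0 of 30 genes had one in TetR only or in WT only, with 1.09% and 0.695% over all genes. Such a rule of 3 libraries against 0 is a description, not a test, and when only a peak over the gene end itself counted, neither Dlk1 nor Phlda2 met it.

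**Figure D3:**
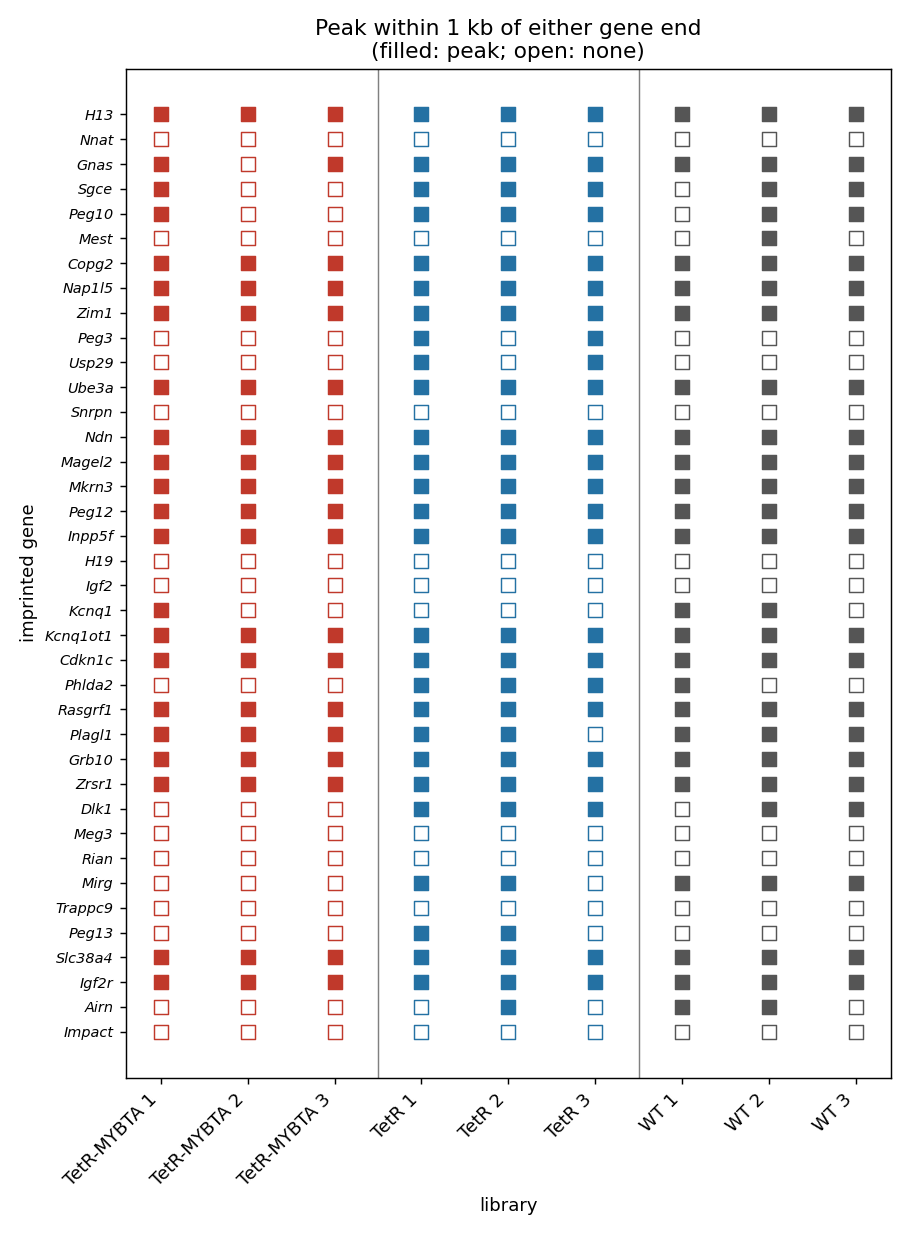
Presence (filled) or absence (open) of a peak within 1 kb of either end of each of the 38 imprinted genes in the 9 libraries, in chromosome order. The rows of Dlk1 and Phlda2 are open in all 3 TetR-MYBTA and filled in all 3 TetR libraries, and 17 rows are filled throughout.

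The Dlk1-Meg3 cluster on chromosome 12 had few peaks in every line and the fewest in TetR-MYBTA. Dlk1 (chr12:109452485-109463336), expressed from the paternal allele, encodes a membrane protein related to Notch ligands. The long non-coding RNAs Meg3, Rian and Mirg are transcribed from the maternal allele, and Rian and Mirg host small RNAs, snoRNAs and microRNAs. Within 50 kb of these 4 genes lay 1, 1 and 1 peaks in TetR-MYBTA, 5, 6 and 3 in TetR, and 4, 7 and 7 in WT. The TetR-MYBTA values lay below all 6 others, and as shares of the lists the mean was 0.26 times that of TetR and 0.19 times that of WT. Between 50 kb and 1 Mb from the cluster the same ratios were 0.67 and 0.80, from 37, 36 and 34 peaks in TetR-MYBTA, 70, 68 and 56 in TetR, and 44, 56 and 50 in WT.

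The single peaks of the TetR-MYBTA libraries lay at different places. In replicate 1 it was inside Meg3 at chr12:109543591-109543784, in replicate 2 inside Meg3 at chr12:109542922-109543182, 2.06 kb from the gene's start, and in replicate 3 at chr12:109437782-109438041, 14.6 kb upstream of Dlk1. The peaks of replicates 2 and 3 belonged to the regions that all 3 TetR and all 3 WT libraries shared. The region inside Dlk1, chr12:109453125-109453386, had a peak in 0 TetR-MYBTA, 3 TetR and 1 WT libraries, and another WT library had a peak at chr12:109452828-109453028 beside it. The region 0.60 kb beyond the end of Mirg, chr12:109749868-109750242, had a peak in 0 TetR-MYBTA, 2 TetR and 3 WT libraries. None of the cluster's 13 regions was shared by all 9 libraries, and those found in more than 1 library stood low in the lists, at mean percentiles of 14.8 to 39.5, where 100 is the top of a list.

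The 4 genes were too sparse for the test over genes with at least 2 peaks. Mirg had 0, 0 and 0 peaks within 50 kb in TetR-MYBTA, 1, 1 and 0 in TetR, and 2, 3 and 1 in WT. When genes of any peak number were tested, Mirg passed for TetR-MYBTA against WT (limma adjusted p = 0.0121), and its fitted fold is not given because all TetR-MYBTA libraries were at 0. Dlk1 had 0, 0 and 1 peaks in TetR-MYBTA, 2, 2 and 2 in TetR, and 1, 2 and 2 in WT, and did not pass (log2 fold change -1.52 ± 0.461 against TetR, adjusted p = 0.0508, and -1.39 ± 0.461 against WT, adjusted p = 0.0718, SE of limma). Meg3 had 1, 1 and 0 peaks in TetR-MYBTA, 2, 3 and 1 in TetR, and 1, 2 and 4 in WT (adjusted p = 0.117 against WT).

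**Figure D4:**
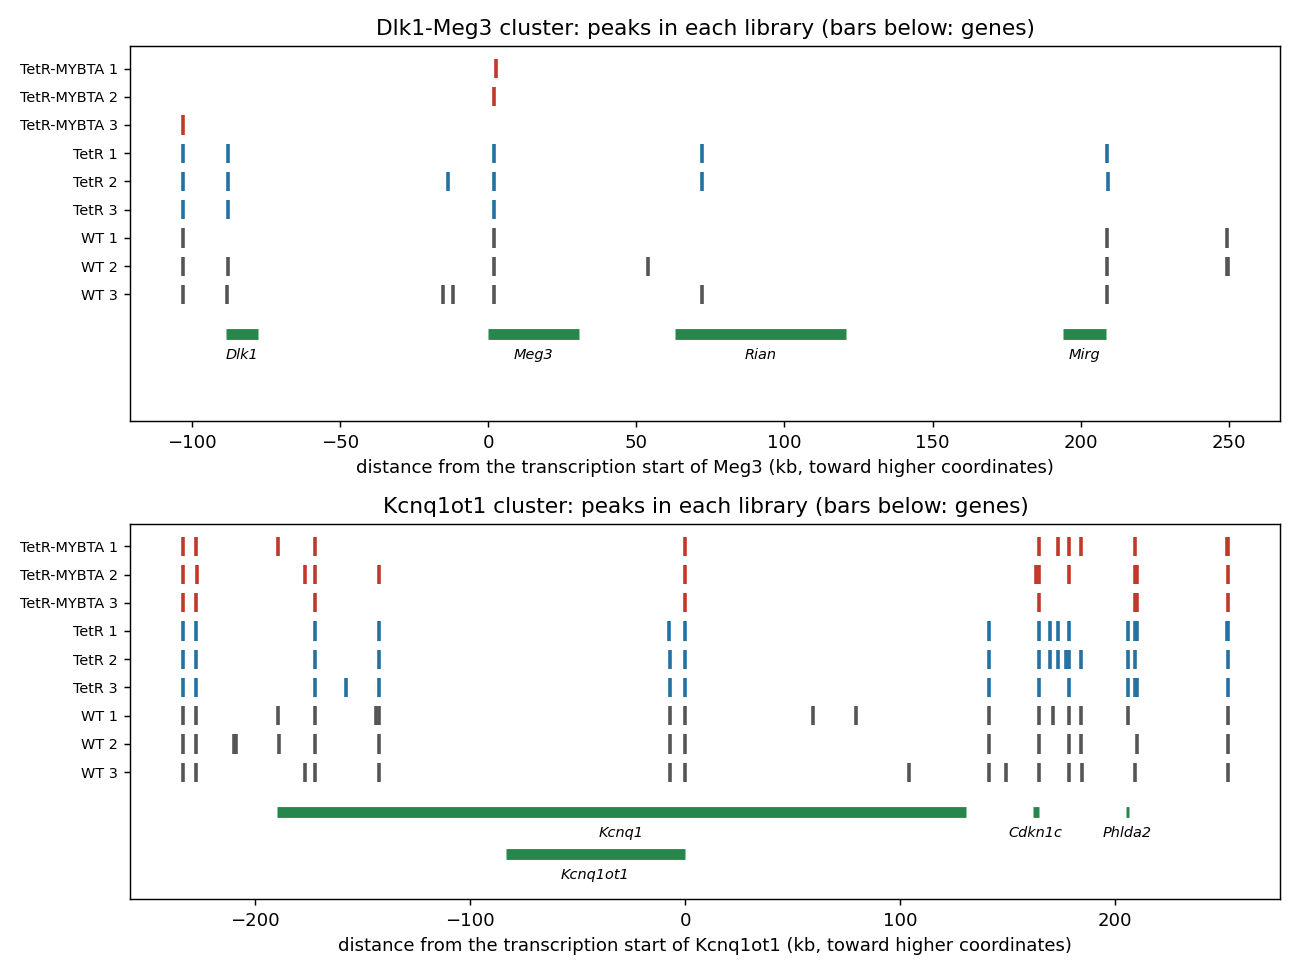
Peaks of each library (ticks) along the Dlk1-Meg3 cluster on chromosome 12 and the Kcnq1ot1 cluster on chromosome 7, by distance in kb from the start of Meg3 or Kcnq1ot1, with the genes as bars below. The TetR-MYBTA rows hold 1 tick each in the upper map, and in the lower map they lack the ticks 7.18 kb inside Kcnq1ot1 and at Phlda2.

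The Kcnq1ot1 cluster on chromosome 7 holds genes that limit growth. Kcnq1ot1 is the paternal non-coding RNA that silences its neighbours, Cdkn1c encodes an inhibitor of cyclin-dependent kinases, Phlda2 a protein that restrains placental growth, and Kcnq1 a potassium channel subunit. The cluster held 12, 12 and 8 peaks in TetR-MYBTA, 16, 16 and 14 in TetR, and 17, 15 and 15 in WT, so the TetR-MYBTA counts lay below the other 6. Scaled to the lists, the ratios of means were 0.83 to TetR and 0.75 to WT, and 50 kb to 1 Mb away they were 0.77 and 0.57. The ratios around the cluster were thus further from 1 than those of the cluster itself. That outer window holds the whole Igf2-H19 cluster, described below, so it is not free of imprinted genes.

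Kcnq1 (chr7:143106877-143427050) carried this difference in the test. It had 8, 9 and 5 peaks within 50 kb in TetR-MYBTA, 11, 12 and 10 in TetR, and 14, 12 and 12 in WT. It was lower in TetR-MYBTA than in WT, with no overlap between the libraries (log2 fold change -0.63 ± 0.151, limma adjusted p = 0.0116), and did not pass for TetR-MYBTA against TetR (-0.31 ± 0.151, adjusted p = 0.188) or TetR against WT (-0.31 ± 0.151, adjusted p = 0.35). The call was lost without WT replicate 1 (adjusted p = 0.0670), within 10 kb of the gene (0.0563), with all lists cut to the same length (0.0509) and with only the upper 50% of every list (0.101).

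Some single regions of this cluster are described because they had a peak in all libraries of one line and none of another, so their sharp difference follows from that choice. A region 7.18 kb from the start of Kcnq1ot1, inside the gene at chr7:143289189-143289548, had a peak in 0 of 3 TetR-MYBTA, 3 of 3 TetR and 3 of 3 WT libraries, and so did chr7:143437899-143438140, 10.97 kb beyond Kcnq1. In the libraries that had them, these stood at mean percentiles of 29.9 and 48.3. The region at the start of Kcnq1ot1 whose promoter is printed above had a peak in all 9 libraries, at a mean percentile of 80.6, and the one at one end of Cdkn1c at a mean percentile of 79.6. The Phlda2 region, chr7:143502507-143502885, covers the printed promoter and had a peak in 0 TetR-MYBTA, 3 TetR and 1 WT libraries, at a mean percentile of 44.1. Cdkn1c itself had 5, 5 and 3 peaks within 50 kb in TetR-MYBTA, 8, 9 and 6 in TetR, and 6, 5 and 6 in WT, and did not pass for TetR-MYBTA against TetR (-0.49 ± 0.179, limma adjusted p = 0.0782).

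Igf2, a growth factor expressed from the paternal allele, and H19, a maternal non-coding RNA, share enhancers beyond H19 on chromosome 7. The pair had 1, 2 and 2 peaks within 50 kb in TetR-MYBTA, 3, 3 and 3 in TetR, and 4, 4 and 4 in WT. The 3 lines did not overlap, and the means scaled to the lists were 0.69 times TetR and 0.48 times WT in TetR-MYBTA, with 0.72 and 0.61 in the sequence 50 kb to 1 Mb away. That sequence holds the whole Kcnq1ot1 cluster. No library had a peak within 1 kb of an end of either gene, and 1 region between them, chr7:142611115-142611454, was shared by all 9. A region inside Igf2, chr7:142660244-142660792, 6.30 kb from the nearest end of the gene, had a peak in 0 of 3 TetR-MYBTA, 3 of 3 TetR and 3 of 3 WT libraries. Another, chr7:142537807-142538221, 37.5 kb from H19 on the side away from Igf2, had one in all 3 WT libraries and in 0 of the other 6.

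H19 and Igf2 gave no call in the tests. H19 had 1, 2 and 2 peaks within 50 kb in TetR-MYBTA, 1, 2 and 1 in TetR, and 3, 3 and 3 in WT, and its log2 fold change was -0.57 ± 0.334 for TetR-MYBTA against WT (limma adjusted p = 0.284) and -1.10 ± 0.334 for TetR against WT (adjusted p = 0.112). The WT libraries lay above all 6 others. Igf2 had 1, 1 and 1 peaks in TetR-MYBTA, 3, 2 and 3 in TetR, and 2, 2 and 2 in WT, and without a minimum peak number its adjusted p was 0.0749 for TetR-MYBTA against TetR and 0.183 against WT.

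On chromosome 17, Igf2r encodes the receptor that clears IGF2 from the cell surface, and Airn is the paternal antisense RNA that silences it in many tissues. Igf2r kept a peak at its start, chr17:12769482-12769842, in all 9 libraries. Airn (chr17:12741311-12859884) had 3, 3 and 2 peaks within 50 kb in TetR-MYBTA, 5, 3 and 3 in TetR, and 6, 6 and 4 in WT. It was lower in TetR-MYBTA than in WT, with no overlap (log2 fold change -0.72 ± 0.221, limma adjusted p = 0.0397). For TetR against WT the value was -0.62 ± 0.221 (adjusted p = 0.184), and for TetR-MYBTA against TetR it was -0.10 ± 0.221 (adjusted p = 0.808).

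The Airn call was close to the threshold. It was lost without TetR-MYBTA replicate 1 (limma adjusted p = 0.0715), 2 (0.0604) or 3 (0.0843), without WT replicate 1 (0.162) or 2 (0.121), with median-of-ratios scaling (0.0690), with scaling by the peaks of chromosome 17 (0.0822) and in lists of equal length (0.135). In shares of the lists, the Igf2r-Airn pair in TetR-MYBTA was at 0.88 times TetR and 0.55 times WT within 50 kb, and at 0.75 and 0.76 times between 50 kb and 1 Mb. Igf2r had 1, 1 and 1 peaks in TetR-MYBTA, 1, 2 and 1 in TetR, and 3, 3 and 2 in WT, and without a minimum peak number its adjusted p was 0.0732 for TetR-MYBTA against WT.

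Nap1l5 on chromosome 6 (chr6:58905233-58907126) passed the test for TetR-MYBTA against TetR and for TetR against WT. It encodes a protein of the nucleosome assembly protein family, is expressed from the paternal allele and lies within the span of Herc3. It had 4, 4 and 3 peaks within 50 kb in TetR-MYBTA, 1, 1 and 1 in TetR, and 3, 4 and 2 in WT. The TetR libraries lay below the other 6. The log2 fold change was 1.74 ± 0.268 for TetR-MYBTA against TetR (limma adjusted p = 0.000573), -1.30 ± 0.268 for TetR against WT (adjusted p = 0.0211) and 0.44 ± 0.268 for TetR-MYBTA against WT (adjusted p = 0.307).

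The single peak of each TetR library was the one at the gene's start, which all 9 libraries shared. The region that TetR lacked and all 6 other libraries had was chr6:58932555-58932821, 25.6 kb from Nap1l5. A further region 14.7 kb from the gene had a peak in 2 TetR-MYBTA, 0 TetR and 1 WT libraries. The call for TetR-MYBTA against TetR held in each of the 9 fits that left out 1 library (adjusted p = 0.000484 to 0.00312). The call for TetR against WT was lost without TetR replicate 1 (0.0612), 2 (0.0622) or 3 (0.0526) and without WT replicate 1 (0.0912) or 2 (0.105). Between 50 kb and 1 Mb the scaled ratio was 1.42 for TetR-MYBTA over TetR, against 4.39 within 50 kb, and 0.87 for TetR over WT, against 0.31.

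The other chromosome 6 genes gave no call. Peg10, a retrotransposon-derived gene needed for the placenta, and Sgce, a sarcoglycan, share a start region, and together they had 11, 8 and 6 peaks within 50 kb in TetR-MYBTA, 11, 9 and 10 in TetR, and 10, 10 and 10 in WT. A gene-end peak was present at both in 1 TetR-MYBTA, 3 TetR and 2 WT libraries. Mest and Copg2, a subunit of the coatomer coat, had 3, 3 and 3 peaks in TetR-MYBTA, 4, 5 and 5 in TetR, and 3, 4 and 3 in WT. The TetR libraries thus overlapped WT at 4 peaks, and a region inside Mest, chr6:30739227-30739461, had a peak in TetR only, in all 3 libraries, with a peak of another line within 1 kb.

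The large Snrpn and Peg3 clusters on chromosome 7 gave no call. The Snrpn cluster, which spans the Prader-Willi and Angelman genes, had 19, 19 and 17 peaks in TetR-MYBTA, 23, 22 and 19 in TetR, and 20, 20 and 19 in WT, and 14 of its 27 regions were shared by all 9 libraries. Ube3a, the ubiquitin ligase of Angelman syndrome, had a peak at its start, chr7:59228527-59228848, at a mean percentile of 98.6 of the lists. The MAGE-family genes Ndn and Magel2, the makorin Mkrn3, and Peg12 each had a gene-end peak in all 9 libraries. Snrpn, a splicing protein gene with a RefSeq span of 468 kb, had none at either end or over its 4 tabulated promoters. Inside it, however, chr7:60002995-60003282 and chr7:60006346-60006574 had a peak in all 9 libraries, at mean percentiles of 90.6 and 81.4. A further region, chr7:60004153-60004385, had one in 8 libraries (82.8). These lie on either side of the tabulated promoter window chr7:60005200-60005449, so the start there is not read as closed. One region inside Mkrn3, chr7:62418689-62418938, was absent in TetR-MYBTA and present in the 6 other libraries, although a TetR-MYBTA peak lay within 1 kb of it.

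The Peg3 cluster had 19, 22 and 15 peaks in TetR-MYBTA, 19, 20 and 17 in TetR, and 19, 19 and 20 in WT, so all 3 lines overlapped. Peg3 and Zim1 encode zinc finger proteins and Usp29 a ubiquitin-specific protease. At the start region that Peg3 and Usp29 share, a gene-end peak was present in 0 TetR-MYBTA, 2 TetR and 0 WT libraries. A region inside Peg3, chr7:6728222-6728969, stood at a mean percentile of 96.2 in all 9 libraries, and the start region of Zim1, chr7:6696413-6696658, at 97.5. Of the cluster's other regions, chr7:6753466-6753768, inside Usp29, lacked a peak in TetR-MYBTA only. A region 16.1 kb from Zim1, chr7:6658129-6658479, lacked one in TetR only, with a TetR peak within 1 kb, and chr7:6652957-6653178 had one in WT only. None of the 9 genes of the Snrpn and Peg3 clusters passed in any comparison. Their log2 fold changes ran from -0.24 (Zim1, TetR against WT) to 0.40 (Ube3a, TetR-MYBTA against WT).

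On chromosome 11, Grb10 and Zrsr1 have to be read beside the chromosome as a whole. Chromosome 11 held 7.34 ± 0.192% of TetR-MYBTA peaks, 5.54 ± 0.00583% of TetR peaks and 5.90 ± 0.0771% of WT peaks (SD over 3 libraries). Zrsr1 (chr11:22972005-22976496), a paternally expressed retrogene for a splicing factor, had 11, 12 and 9 peaks within 50 kb in TetR-MYBTA, 9, 10 and 10 in TetR, and 8, 8 and 9 in WT. It was higher in TetR-MYBTA than in WT, with one tied value of 9 peaks (log2 fold change 0.49 ± 0.144, limma adjusted p = 0.0330). Scaled by the peaks of its own chromosome it did not pass (0.17, adjusted p = 0.465), and the value against TetR, 0.40 ± 0.144 when scaled by list length (adjusted p = 0.0737), became -0.0029.

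The Zrsr1 call was also lost without TetR-MYBTA replicate 2 (limma adjusted p = 0.0935) or 3 (0.0656) and without WT replicate 1 (0.0739), 2 (0.120) or 3 (0.0527). It was lost within 10 kb (0.310), with lists of equal length (0.592) and with the upper 50% of lists (0.645). Between 50 kb and 1 Mb from Zrsr1 the scaled ratios were 1.44 for TetR-MYBTA over TetR and 1.37 over WT, against 1.32 and 1.42 within 50 kb. Grb10, an adaptor that restrains insulin signalling, had 12, 12 and 13 peaks in TetR-MYBTA, 14, 11 and 11 in TetR, and 10, 11 and 13 in WT, and did not pass. Its scaled ratios were 1.26 and 1.23 within 50 kb and 1.73 and 1.74 further out.

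On chromosome 15, Trappc9, a subunit of a vesicle-tethering complex, spans Peg13, a paternal non-coding RNA. Trappc9 (chr15:72589620-73061238) had 13, 10 and 8 peaks within 50 kb in TetR-MYBTA, 21, 16 and 16 in TetR, and 15, 10 and 13 in WT. The TetR libraries lay above the other 6, and Trappc9 fell short of the threshold for TetR-MYBTA against TetR (log2 fold change -0.48 ± 0.160, limma adjusted p = 0.0541). It passed without TetR-MYBTA replicate 1 (0.0428) or without WT replicate 1 (0.0373) or 2 (0.0260), where WT enters only through the shared spread and the choice of genes tested. At Peg13 a gene-end peak was present in 0 TetR-MYBTA, 2 TetR and 0 WT libraries. Inside Trappc9, chr15:72850606-72851082 lacked a peak in TetR-MYBTA only, and chr15:72956437-72956661 had one in TetR only.

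Plagl1 on chromosome 10, a zinc finger transcription factor gene, had 5, 5 and 4 peaks within 50 kb in TetR-MYBTA, 3, 4 and 4 in TetR, and 4, 4 and 3 in WT. It did not pass (log2 fold change 0.59 ± 0.211 for TetR-MYBTA against TetR, limma adjusted p = 0.0734, and 0.47 ± 0.211 against WT, adjusted p = 0.153). It held the only region near an imprinted gene that was found in all 3 TetR-MYBTA and in no other library, chr10:13118724-13118957, inside the gene and 12.9 kb from its nearer end, at a mean percentile of 66.9. The tabulated promoter of Plagl1, with 19 CpGs and 1 TGCCGC hexamer, was overlapped by a peak in 3 TetR-MYBTA, 1 TetR and 0 WT libraries. The region at that start, chr10:13090647-13091246, had a peak in 3 TetR-MYBTA, 2 TetR and 3 WT libraries, and the nearest WT peaks were centred 136, 184 and 314 bp inside the start. Around Plagl1 the scaled ratios were 0.92 and 0.88, against 1.52 and 1.41 within 50 kb.

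The remaining loci gave no call in the test over genes with a mean of at least 2 peaks, which Nnat did not enter. Gnas, which encodes the stimulatory G protein alpha subunit, had 5, 5 and 7 peaks in TetR-MYBTA, 8, 7 and 9 in TetR, and 7, 7 and 8 in WT. Slc38a4, an amino acid transporter, had 7, 6 and 4 peaks in TetR-MYBTA, 7, 7 and 6 in TetR, and 8, 11 and 7 in WT. Its highest value, 11, was in WT replicate 2, and 1 region inside it, chr15:97028145-97028393, lacked a peak in TetR-MYBTA only and another, chr15:97002801-97003084, in TetR only. Nnat, a membrane protein gene, had 0 peaks in each TetR-MYBTA, 1 in each TetR and 0 in each WT library, in a region 37.4 kb from the gene, chr2:157522555-157522800. Without a minimum peak number Nnat entered the fit only through that region. Its limma adjusted p was 0.0450 for TetR-MYBTA against TetR and 0.0815 for TetR against WT. The first value is under the threshold, but it rests on 1 peak against 0 in each library and is not taken as support.

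Rasgrf1, a Ras exchange factor, had 7, 8 and 5 peaks in TetR-MYBTA, 11, 8 and 8 in TetR, and 9, 5 and 7 in WT, and it had a gene-end peak in all 9 libraries. H13, a signal peptide peptidase, had 8 to 10 peaks per TetR-MYBTA library, 11 to 13 per TetR library and 8 to 13 per WT library. Inpp5f, an inositol phosphatase, had 5 to 8 per TetR-MYBTA library, 8 to 10 per TetR library and 8 in each WT library. Impact, a translational regulator on chromosome 18, had 2 to 4 per TetR-MYBTA library, 3 to 5 per TetR library and 4 to 5 per WT library. In each of these 4 the ranges of the lines touched or overlapped except for H13 between TetR-MYBTA and TetR.

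Region by region, the shares near imprinted genes are set beside those near any gene, with no test. Found in each TetR-MYBTA library but no TetR library were 4 of 263 regions near them (1.52%, against 1.39% of regions near any gene), and the reverse held for 19 (7.22%, against 5.14%). Between TetR-MYBTA and WT, 3 of 253 regions were in TetR-MYBTA only (1.19%, against 1.25%) and 12 in WT only (4.74%, against 3.42%). Between TetR and WT, 6 of 285 were in TetR only (2.11%, against 2.51%) and 7 in WT only (2.46%, against 1.51%). Over all 9 libraries, 77 of the 302 regions were shared by all (25.5%, against 22.8%) and 72 were found in 1 library (23.8%, against 25.3%).

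Of the 302 regions, 7 lacked a peak in TetR-MYBTA only and had one in the 6 other libraries (2.32%, against 1.22% of regions near any gene). They lay at Usp29, Mkrn3, Igf2, Kcnq1ot1, Kcnq1, Trappc9 and Slc38a4, 1 at each, and 5 of them were on chromosome 7. Many of the 302 regions lie on that chromosome: 32 at Kcnq1ot1, 32 at Peg3, 27 at Snrpn, 10 at Inpp5f and 7 at Igf2-H19. The 5 that TetR-MYBTA lacked there stood at mean percentiles of 22.1 (Usp29), 74.4 (Mkrn3), 34.5 (Igf2), 29.9 (Kcnq1ot1) and 48.3 (Kcnq1) in the libraries that had them. Absent in TetR only were 3 regions (0.993%, against 0.239%), at Nap1l5, Zim1 and Slc38a4, and absent in WT only were 0 (against 0.139%). Present in TetR only were 5 regions (1.66%, against 1.38%), at Nnat, Gnas, Mest, Grb10 and Trappc9, and present in WT only were 3 (0.993%, against 0.576%), at Gnas, Zim1 and H19. Chromosome 7 held 5.64 ± 0.106% of TetR-MYBTA peaks, 5.86 ± 0.0791% of TetR peaks and 6.24 ± 0.0635% of WT peaks, and the part of this in the chromosome 7 regions was not tested.

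Whether a cluster stood apart from the sequence around it was described by setting the scaled ratio within 50 kb beside that between 50 kb and 1 Mb, which was chosen with the data in view and carries no test. Other imprinted genes were not taken out of the outer windows, and the Kcnq1ot1 and Igf2-H19 clusters lie in each other's. The widest gaps on a log scale between the inner and outer ratio of TetR-MYBTA over TetR were at Nap1l5, Dlk1-Meg3 and Plagl1, each further from 1 within 50 kb. At Gnas, which came next, the outer ratio was further from 1, with 0.88 within 50 kb and 0.56 outside for TetR-MYBTA over TetR, and 0.89 and 0.43 over WT.

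**Figure D5:**
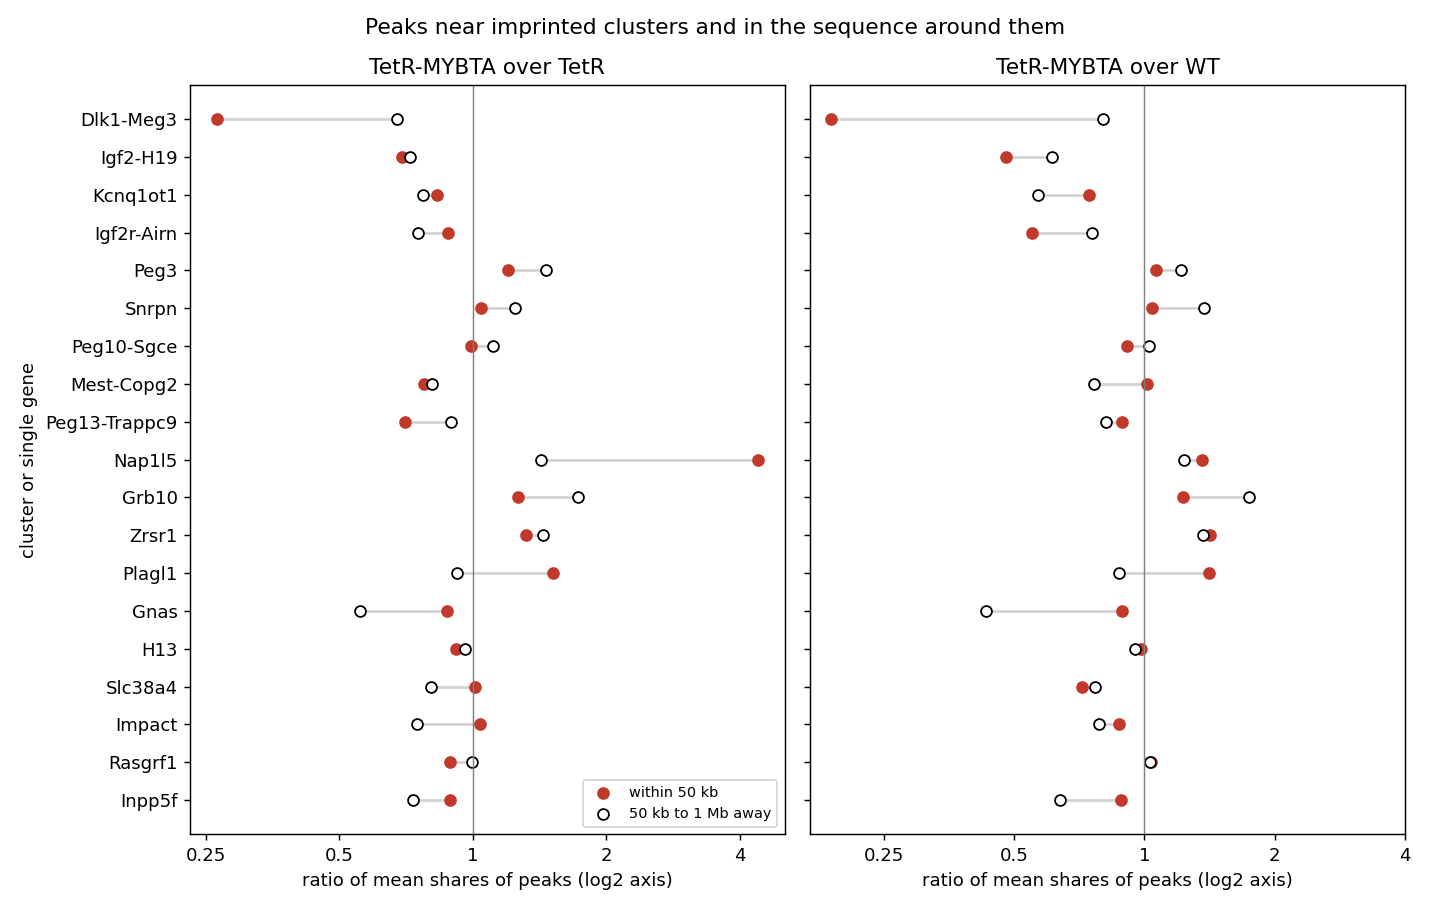
Ratio of the mean share of peaks in TetR-MYBTA over TetR (left) and over WT (right) within 50 kb of each imprinted cluster (filled) and between 50 kb and 1 Mb from it (open), on a log2 axis, without Nnat, whose TetR-MYBTA count was 0. Dlk1-Meg3 lies furthest left, at 0.26 and 0.19, with 0.67 and 0.80 around it, and Nap1l5 furthest right over TetR, at 4.39 with 1.42 around it. The outer windows of Kcnq1ot1 and Igf2-H19 each hold the other cluster.

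A further list of 47 imprinted genes was set beside these, of which 45 matched RefSeq names and 37 entered the test. For TetR-MYBTA against TetR 4 were higher (Herc3, Zim3, Hymai and Ddc) and 4 lower (Jade1, Th, Begain and Ago2), 8 of 37 where 12.6% of all genes passed. For TetR-MYBTA against WT 4 were higher (Dcn, Ddc, Cobl and Commd1) and 6 lower (Cpa4, Nctc1, Th, Osbpl5, Begain and Ago2), 10 of 37 where 12.4% of all genes passed, 3.1% higher and 9.32% lower. Of those higher, Ddc, Cobl and Commd1 lie on chromosome 11, which held 7.34% of TetR-MYBTA peaks and 5.90% of WT peaks, and none of the 3 passed when scaled by the peaks of that chromosome (limma adjusted p = 0.537 for Ddc, 0.110 for Cobl and 0.519 for Commd1). Ddc did not pass for TetR-MYBTA against TetR under that scaling either (adjusted p = 0.243). For TetR against WT 2 were higher (Cobl and Begain) and 2 lower (Herc3 and Nctc1), 4 of 37 where 1.53% of all genes passed, 0.768% higher and 0.759% lower. These counts of 8, 10 and 4 were 5 to 10, 5 to 9 and 0 to 5 when each library was left out in turn, the last being 0 without TetR replicate 1 or 3 or WT replicate 1. Several of these flank the genes above and share their peaks: Herc3 spans Nap1l5, and Hymai lies at Plagl1.

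Begain, a gene of the Dlk1-Meg3 domain 384 kb from Dlk1 that encodes a synaptic protein, had 0, 0 and 0 peaks within 50 kb in TetR-MYBTA, 5, 7 and 6 in TetR, and 1, 1 and 2 in WT. The lines did not overlap, and Begain passed in all 3 comparisons (limma adjusted p = 2.86e-05 for TetR-MYBTA against TetR, 0.00659 for TetR-MYBTA against WT and 0.0245 for TetR against WT). Begain reached the minimum mean of 2 peaks only through the TetR libraries, where it was high. These calls are therefore not taken as support beyond the counts of Begain. Its log2 fold change was 1.74 ± 0.366 for TetR against WT, and no fold is given against TetR-MYBTA, where all libraries were at 0. The call for TetR-MYBTA against WT was lost without WT replicate 3 (0.0501), and that for TetR against WT without TetR replicate 1 (0.0612) or 3 (0.129) or WT replicate 1 (0.0915) or 2 (0.0972), while without TetR replicate 2 Begain fell under the minimum of peaks. Th, the tyrosine hydroxylase gene between Igf2 and Kcnq1, had 0, 1 and 0 peaks in TetR-MYBTA, 3, 3 and 3 in TetR, and 4, 4 and 3 in WT. It was lower in TetR-MYBTA than in both (limma adjusted p = 0.00223 against TetR and 0.000784 against WT), also without any 1 library.

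Ago2, an Argonaute gene 40.4 kb from Trappc9, had 5, 5 and 4 peaks in TetR-MYBTA, 9, 11 and 9 in TetR, and 8, 7 and 8 in WT. It was lower in TetR-MYBTA than in TetR (log2 fold change -0.70 ± 0.160, limma adjusted p = 0.00785) and than in WT (-0.51 ± 0.160, adjusted p = 0.0439). The call against WT was lost without TetR-MYBTA replicate 1 (0.0957), 2 (0.0780) or 3 (0.0578), TetR replicate 2 (0.0579) or 3 (0.0553), or WT replicate 1 (0.155) or 3 (0.130). A gene-end peak at Ago2 was absent in all 3 TetR-MYBTA libraries and present in all 3 TetR and all 3 WT libraries. Ago2 was 1 of 29 genes of the further list with such a peak in TetR-MYBTA or TetR, where 2.85% of all such genes met the rule. For TetR-MYBTA and WT it was 1 of 28, where 2.46% of all such genes did. Herc3, a ubiquitin ligase gene, had 6, 5 and 4 peaks in TetR-MYBTA, 2, 2 and 2 in TetR, and 4, 5 and 3 in WT. Its log2 fold change was 1.40 ± 0.215 for TetR-MYBTA against TetR (adjusted p = 0.000584) and -0.94 ± 0.215 for TetR against WT (adjusted p = 0.0346). Against WT it was lost without TetR replicate 1 (0.102), 2 (0.0966) or 3 (0.0727) and without WT replicate 1 (0.122) or 2 (0.150).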

How the data were processed

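ATAC-seq was measured in 9 libraries of 3 E14 lines, 3 each. DNA was tagged by Nextera Tn5, per the labels' protocols. HOMER 4.11, deepTools 3.5.5, Trim Galore 0.6.10, Picard, Bowtie2 and FastQC are named with mm10 in the submitters' processing notes. A shift of reads for the Tn5 offset is not stated there. HOMER called peaks per library without a control (false discovery rate 0.001, local excess 4-fold over 10 kb, local p-value 1e-04, 1 tag per position at most), per the file headers. The deposited score is 1 in every row, so peaks were used as present or absent, and the depth behind single peaks is unknown. Peak starts and ends, other measures in base pairs, are the authors' deposited positions, given counting from 1. Row order followed HOMER's ranking and gave percentiles.

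Peaks overlapping by 1 bp formed regions. Genes came from RefSeq (GRCm38.p6, 49943 genes), all 38 matching by symbol. Peak numbers within 50 kb plus 0.5, scaled by list length, were tested on the log2 scale with limma 3.58.1 (two-sided, trend, all 9 libraries) in R 4.3.3, for genes with a mean of at least 2 peaks. The fit was tested on counts simulated with known changes for TetR-MYBTA against TetR. The simulated counts had Poisson spread, which may differ from the spread of these libraries. It recovered 26 of 53 simulated 4-fold gains and 3 of 50 losses to 0.25 times. Of 2-fold changes it recovered 1 of 57 gains and 1 of 40 losses, with 1 false call among 32. A gene without a call may therefore still have changed. Values in every library are given for imprinted genes of the 38 that pass a test or the gene-end rule, and for others of the 38 where their clusters are described. Of the further lists, Begain, Th, Ago2, Herc3 and Ehmt2 were chosen for this after their values were seen. Genes, lists and tests were chosen with earlier results of these data known. Replicate numbers did not pair libraries: same-numbered libraries correlated at -0.041 to 0.0688 in their deviations. Alternatives covered the offset, minimum, distance, scaling, lists of equal length, their upper 50%, voom, a replicate block and each library left out. Genome sequence was not used here, so CpG content and motifs of regions were not analysed here.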

Additional observations from a re-analysis of the deposited data

How the results depend on the processing

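Every number rests on presence or absence of peaks, so opening that changes in height without crossing the calling threshold is not seen, and small counts leave few genes able to pass. Over all genes, calls were 979 within 10 kb and 8439 within 100 kb for TetR-MYBTA against TetR (4216 within 50 kb), 802 and 8895 for TetR-MYBTA against WT (4169), and 72 and 1127 for TetR against WT (513), which also gave 305 scaled by chromosome, 849 with voom and 856 in upper 50% lists. Median-of-ratios scaling gave 1801 higher and 2216 lower genes for TetR-MYBTA against TetR (1406 and 2810 scaled by list length) and 1409 and 2222 against WT (1041 and 3128).

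For TetR-MYBTA against TetR, 1 imprinted gene passed, but 2 with an offset of 1, no minimum, voom or the replicate block (Trappc9, adjusted p = 0.0229), 3 with median-of-ratios scaling or upper 50% lists, 4 in lists of equal length and 7 within 100 kb. Against WT, 3 passed, but 1 scaled by chromosome, in equal lists and in upper 50% lists, 0 within 10 kb and 7 within 100 kb. For TetR against WT, 1 passed, but 0 with a minimum of 4 peaks, within 10 kb, in equal lists and in upper 50% lists, and 2 within 100 kb. Zrsr1 for TetR-MYBTA against TetR reversed to -0.0029 when scaled by chromosome. The medians of all genes moved to -0.11 (TetR-MYBTA against WT, equal lists) and -0.12 (TetR against WT, upper 50%). The causes were not tested.

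Gene-end differences numbered 2, 1 and 0 in the 3 comparisons, and 6, 3 and 4 when 2 of 3 libraries sufficed; TetR-MYBTA against TetR gave 0 over the end itself and 1 in upper 50% lists. Regions in one line only numbered 23, 15 and 13, and 53, 35 and 41 with 2 of 3 libraries; TetR against WT gave 8 in equal lists. Ratios of the share of peaks near imprinted genes were 0.988, 0.944 and 0.955; upper 50% lists gave 1.09 for TetR-MYBTA against TetR and 0.842 for TetR against WT. With each library left out in turn, calls over all genes ranged from 2478 to 4090, 2511 to 3904 and 114 to 683, imprinted genes from 1 to 2, 0 to 3 and 0 to 1, gene ends from 2 to 4, 1 to 2 and 0 to 2, regions from 23 to 34, 15 to 22 and 13 to 24, and share ratios from 0.958 to 1.00, 0.912 to 0.973 and 0.923 to 0.985. The other alternatives left each of these counts within 1.5 times its value.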

Other observations

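Of 28 genes linked to setting, keeping or removing imprints, Tet1, Tet2 and Tet3 among them, 15 had a gene-end peak in all 9 libraries (53.6%, against 44.2% of all protein-coding genes). They include Trim28, which encodes the corepressor KAP1, Uhrf1, which guides maintenance methylation, and the Polycomb subunits Eed, Ezh2 and Suz12. Zfp57, Dnmt1, Dnmt3a, Dnmt3l, Dppa3 and Ctcf had one in no library. Ctcfl, a paralog of Ctcf usually expressed in testis, had one in 3 of 3 TetR-MYBTA, 0 of 3 TetR and 0 of 3 WT libraries. It was 1 of 22 listed genes with such a peak in TetR-MYBTA or TetR, where 0.627% of all such genes met the rule. For TetR-MYBTA and WT it was 1 of 21, where 0.512% of all such genes did. Within 50 kb, Ctcfl went the other way, with 4, 4 and 3 peaks in TetR-MYBTA, 6, 6 and 6 in TetR, and 5, 6 and 6 in WT. It did not pass there (limma adjusted p = 0.158 against TetR and 0.120 against WT).

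In peaks within 50 kb, 2 of the 28 genes were lower in TetR-MYBTA than in TetR, Ctcf and Ehmt2, where 8.37% of all genes were, and 3 were lower than in WT, Setdb1, Kdm1b and Ehmt2, where 9.32% of all genes were. With each library left out in turn, 0 to 3 genes passed against TetR, the 0 without TetR replicate 2, and 1 to 5 against WT, the 1 without WT replicate 1 or 2 and the 5 without TetR-MYBTA replicate 1. Ehmt2, a histone H3 lysine methyltransferase gene, had 3, 3 and 3 peaks in TetR-MYBTA, 5, 8 and 6 in TetR, and 7, 7 and 6 in WT (log2 fold change -0.67 ± 0.203 against TetR, limma adjusted p = 0.0382, and -0.87 ± 0.203 against WT, adjusted p = 0.00955). The call against TetR was lost without TetR-MYBTA replicate 1 (0.09995) or 2 (0.0860) and TetR replicate 2 (0.183) or 3 (0.116).

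Of 10 embryonic stem cell markers with a gene-end peak in TetR-MYBTA or TetR, 1 had it in all TetR and no TetR-MYBTA libraries, where 2.85% of all such genes did. This was Nanog, with 0 of 3 TetR-MYBTA, 3 of 3 TetR and 1 of 3 WT libraries. In peaks within 50 kb Nanog did not pass for TetR-MYBTA against TetR (limma adjusted p = 0.612). Of the 12 markers, 1 (Tfcp2l1) was higher in TetR-MYBTA than in TetR and 0 were lower, where 4.19% and 8.37% of all genes were. Against WT, 2 were higher (Tfcp2l1 and Zfp42) and 1 lower (Fgf4), where 3.1% and 9.32% of all genes were. Of the 3 neural markers, Sox1 had a gene-end peak in 0 TetR-MYBTA, 3 TetR and 3 WT libraries, Pax6 in 2, 3 and 1 of these, and Neurod1 in all 9. A gene-end peak missing from TetR-MYBTA as at Sox1 was found for 2.85% of all genes with such a peak in TetR-MYBTA or TetR, and for 2.46% of those with one in TetR-MYBTA or WT.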
